A study of Homo sapiens with 12 samples.

Results

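Glutamate and GABA receptor subunits were followed in a human neuroblastoma line, SK-N-SH, and in 3 drug-exposed lines derived from it. The members were all genes whose symbol on the array platform starts as those of the AMPA, NMDA, kainate and delta ionotropic glutamate receptors, the metabotropic glutamate receptors, or the GABA-A and GABA-B receptors do. This gave 43 genes of 20046 on the platform, read by 64 probes. WT was the parental line, and WT-v the parental line given vorinostat (SAHA), an inhibitor of histone deacetylases, at intervals. DoxR was the line carried through rising doses of doxorubicin, an anthracycline that poisons topoisomerase II, until it grew in the drug. DoxR-v was raised in the same way with vorinostat given at intervals as well. Each group held 3 arrays (Illumina bead arrays) of 1 line, so a drug and the history of the line that received it cannot be told apart. RNA came from triplicate specimens and the labels do not say that these were separate cultures. The p-values therefore measure only the spread between these samples, which may be technical.

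Glutamate is the main excitatory and GABA the main inhibitory transmitter of the brain. AMPA, NMDA and kainate receptors are glutamate-gated cation channels built of several subunits, and NMDA receptors need the GluN1 subunit encoded by GRIN1 to reach the cell surface. GABA-A receptors are chloride channels assembled from alpha, beta and other subunits, whereas metabotropic glutamate receptors and GABA-B receptors signal through G proteins. Neuroblastoma arises from the sympathoadrenal lineage of the neural crest, and the SK-N-SH line is known to hold neuroblastic and substrate-adherent (mesenchymal) cells.

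Between 14969 and 17220 probes were detected per array, where detected means a detection p-value below 0.01 against the array's negative controls. Levels correlated at 0.982 to 0.992 between arrays of a group and at 0.936 to 0.971 between arrays of different groups, across probes. In a principal component plot, WT replicate 3 stood away from the other WT arrays (second component 26.1, against 46.3 and 50.3). All 13 sympathoadrenal markers on the array were detected on every array of WT, WT-v and DoxR-v, and 12 of them in DoxR, where TH was not detected. Of 10 mesenchymal markers 5 were detected in WT, WT-v and DoxR-v each and 6 in DoxR. The summed log2 level of the 8 tested mesenchymal markers was 58.3 to 59.3 in WT, 62.3 to 63.0 in WT-v, 69.4 to 69.9 in DoxR and 61.8 to 63.3 in DoxR-v. The blood markers PTPRC, CD3E, LYZ and HBB and the glial markers S100B, SOX10 and GFAP were not detected in any group. The remaining glial marker, ERBB3, was detected on all arrays of DoxR and DoxR-v and on none of WT and WT-v.

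Most of the receptor subunit genes gave no signal above background in any line. Of the 43 genes, 28 were detected on no array, 6 on some arrays only, and 9 on every array of at least 1 group. The 15 genes with a detected probe made up 34.9% of the members, while 12093 genes, or 60.3% of all genes on the platform, had one. Levels are given on the log2 scale after background correction and quantile normalization. The 43 member probes that were detected nowhere lay between 4.21 and 5.18. The lowest level that counted as detected differed between arrays, from 5.13 to 5.55.

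The 9 detected genes were spread over the receptor classes. They were the NMDA receptor genes GRIN1 and GRIN3A, the AMPA receptor genes GRIA2 and GRIA4, the kainate receptor gene GRIK2, the metabotropic receptor genes GRM2 and GRM8, and the GABA-A receptor genes GABRB1 and GABRE. None of the 4 NMDA receptor genes of the GRIN2 type, which supply the glutamate-binding subunits, was detected in a whole group. GRIN2A, GRIN2C and GRIN2D were detected on no array, and GRIN2B on 1 WT array. Of the 16 GABA-A receptor genes 13 were detected on no array, including the alpha subunit genes GABRA2, GABRA3, GABRA4 and GABRA6 and the gamma subunit genes GABRG1 and GABRG3. GABBR1 and GABBR2, which together form the GABA-B receptor, were also detected on no array. At this sensitivity a transcript below the negative controls cannot be told from an absent one.

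**Figure D1:**
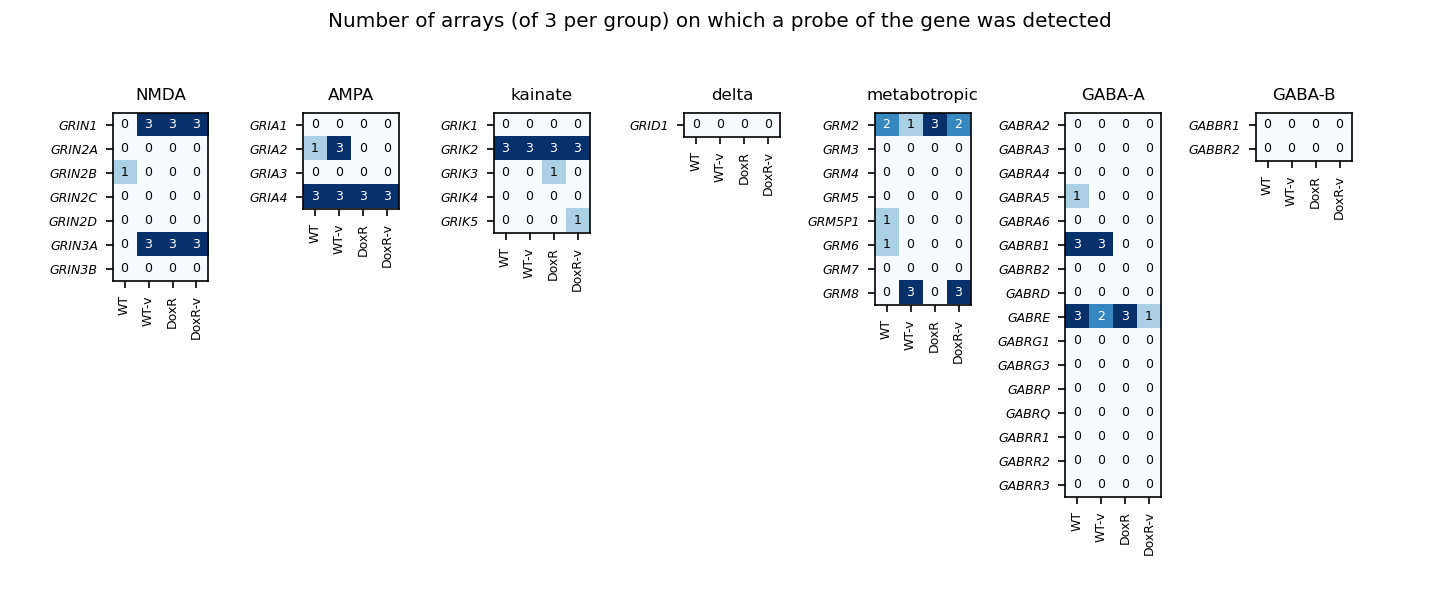
Number of arrays, out of 3 per group, on which a probe of each of the 43 member genes was detected (detection p-value below 0.01), by receptor class and group. Filled rows are few: 28 genes read 0 in every group, and only GRIA4 and GRIK2 were detected on all arrays of all 4 groups.

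The detected genes fell into different patterns across the 4 lines. GRIN1 and GRIN3A were not detected in WT and were detected on every array of the 3 drug-exposed lines. GRM8 was detected on every array of both lines given vorinostat and on no array of the lines without it. GABRB1 was detected in both lines never selected with doxorubicin and in neither line selected with it. GRIA2 reached a clear signal in WT-v alone. GRIA4, GRIK2, GRM2 and GABRE were detected on at least 1 array of every line.

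**Figure D2:**
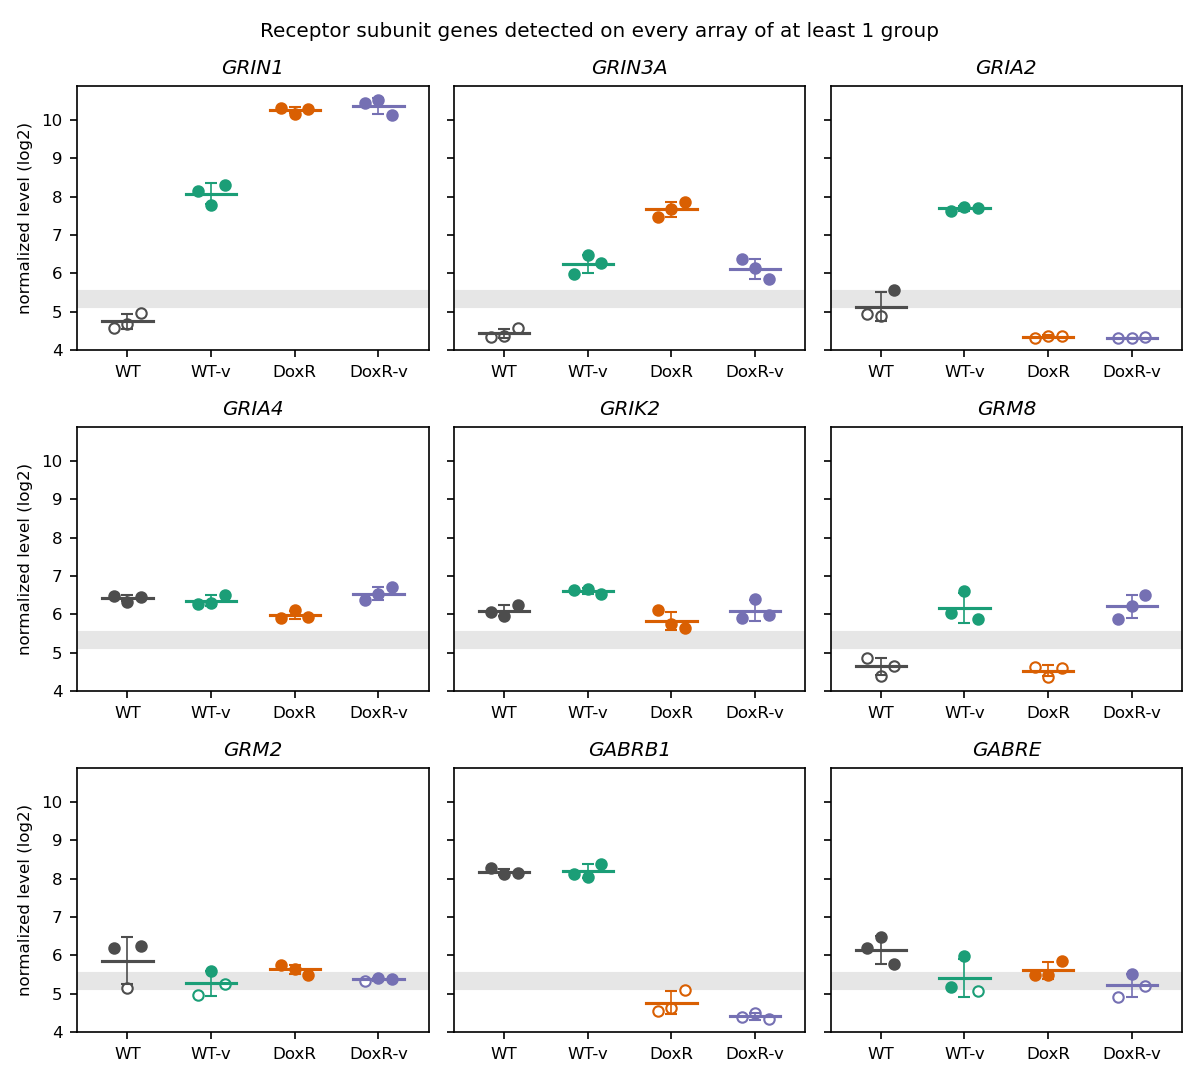
Normalized level (log2) of the brightest tested probe of the 9 receptor subunit genes detected on every array of at least 1 group. Each point is an array, filled where the probe was detected and open where it was not, lines and bars show the mean and SD (n = 3), and the grey band spans the lowest detected levels of the 12 arrays (5.13 to 5.55). GRIN1 and GRIN3A lie below the band in WT and above it elsewhere, and GABRB1 does the opposite in DoxR and DoxR-v.

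The stretches before the start sites of GRIN3A, GRIA2, GRM8 and GABRB1 are shown because these genes passed from undetected to detected, or the reverse, between lines. GRIN1 did so too and has no entry in the table used here. The 250 bases upstream of each start are printed from RefSeq (GRCh38.p14), read 5′ to 3′ on the strand of the gene, with CpG dinucleotides, the usual site of DNA methylation, in capitals.
GRIN3A: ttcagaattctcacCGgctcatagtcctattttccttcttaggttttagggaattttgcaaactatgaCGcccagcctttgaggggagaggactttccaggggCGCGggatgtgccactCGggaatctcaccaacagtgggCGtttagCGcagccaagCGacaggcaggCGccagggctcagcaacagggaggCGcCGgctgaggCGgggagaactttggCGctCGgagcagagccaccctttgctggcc
GRIA2: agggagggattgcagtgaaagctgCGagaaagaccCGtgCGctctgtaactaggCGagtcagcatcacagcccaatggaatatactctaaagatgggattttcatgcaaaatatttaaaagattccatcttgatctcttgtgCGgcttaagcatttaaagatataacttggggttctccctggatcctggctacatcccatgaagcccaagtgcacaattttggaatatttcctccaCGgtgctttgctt
GRM8: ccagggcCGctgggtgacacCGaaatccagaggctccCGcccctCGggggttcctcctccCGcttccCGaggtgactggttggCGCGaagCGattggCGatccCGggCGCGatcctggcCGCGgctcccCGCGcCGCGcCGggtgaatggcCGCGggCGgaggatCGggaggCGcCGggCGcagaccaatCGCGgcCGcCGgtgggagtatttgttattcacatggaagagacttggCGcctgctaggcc
GABRB1: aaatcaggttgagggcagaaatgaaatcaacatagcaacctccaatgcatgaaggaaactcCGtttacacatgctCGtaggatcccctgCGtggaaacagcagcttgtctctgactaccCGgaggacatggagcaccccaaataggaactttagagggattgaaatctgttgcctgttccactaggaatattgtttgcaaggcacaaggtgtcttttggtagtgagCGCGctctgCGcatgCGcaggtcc
GRIN3A spans chr9:101738648-101738897 on the minus strand, GRIA2 chr4:157219870-157220119 on the plus strand, GRM8 chr7:127252942-127253191 on the minus strand and GABRB1 chr4:47031317-47031566 on the plus strand. The GRM8 window had 32 CpG and a G+C content of 70.8%, against a median of 11 CpG and 58% over 27305 promoter windows of the same length. GRIN3A had 14 CpG (58.8% G+C), GABRB1 8 (49.2%) and GRIA2 6 (44.4%). Of the 43 members 34 had a window in the RefSeq table, with medians of 12.5 CpG and 63.6% G+C. Exact matches on both strands were counted for the GC box (GGGCGG), the TATA box (TATAAA), the cyclic AMP response element (TGACGTCA) and the outer parts of the RE1 element of neuronal genes (CAGCACC and GGACAGC). GRM8 held 2 GC boxes, and none of these letters stood in the other windows shown. Over all windows the shares with a match were 42.3%, 11.1%, 1.77%, 6.07% and 4.78% in that order, and among the 34 members 17, 1, 1, 3 and 5 windows had one.

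Lines were compared with limma. A difference was called where the fold change exceeded 1.5 and the adjusted p lay under 0.1, with p-values adjusted over all 21609 probes tested and each gene read by its brightest tested probe. In DoxR vs WT, GRIN1 and GRIN3A were higher and GABRB1 and GRIA2 lower, so 4 of 15 tested members were called, where 33.1% of all tested genes were (17.1% higher and the rest lower). In DoxR-v vs WT the 6 called were GRIN1, GRIN3A and GRM8, which were higher, and GABRB1, GABRE and GRIA2, which were lower (24.4% of all genes called, 12.6% higher and 11.8% lower). In WT-v vs WT, GRIA2, GRIN1, GRIN3A and GRM8 were higher and GABRE and GRM2 lower, again 6 (26.3% of all genes, 14.0% higher and 12.3% lower). Between the resistant lines, DoxR-v vs DoxR, only GRM8 was higher and GRIN3A lower (28.2% of all genes called, 14.3% higher and 13.9% lower). In DoxR-v vs WT-v, GRIN1 was higher and GABRB1 and GRIA2 were lower (24.2% of all genes called, 11.9% higher and 12.3% lower). The first 3 comparisons share the WT arrays. GABRA5, GRIN2B, GRM5P1 and GRM6 entered the test through 1 WT array each, and GRIK3 and GRIK5 through 1 array of DoxR or DoxR-v, so no median over the 15 is given. The called members GRIN1, GRIN3A, GRM8 and GABRB1 also entered only through arrays of the lines where they were high. The detection filter thus favours such calls, and the same filter was applied to all genes. The 28 members detected on no array enter none of these counts.

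**Figure D3:**
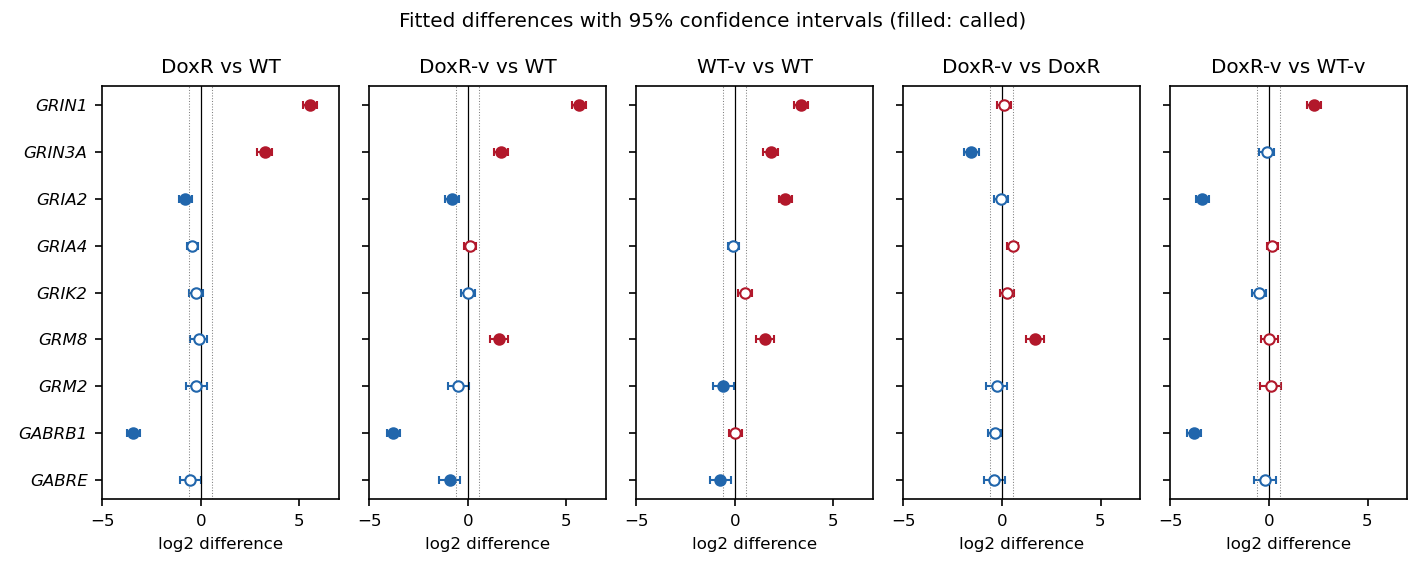
Fitted log2 difference (x axis) of the 9 detected receptor subunit genes (rows) in the 5 pairwise comparisons, with 95% confidence intervals; filled points were called, open points were not, and dotted lines mark a fold change of 1.5. GRIN1 lies far to the right in the comparisons with WT (5.52, 5.63 and 3.34), and GABRB1 far to the left in the comparisons that set a doxorubicin-selected line against a parental one (-3.42, -3.78 and -3.79).

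GRIN1, on chromosome 9, showed the widest range among the member probes. Its brightest probe read 4.58, 4.68 and 4.97 in WT. It read 8.15, 7.78 and 8.31 in WT-v, and 10.31, 10.17 and 10.29 in DoxR. In DoxR-v it read 10.44, 10.53 and 10.14. The WT arrays were lowest and WT-v lay between WT and the resistant lines, without overlap, whereas DoxR and DoxR-v overlapped. Before normalization the same probe gave 87.3 to 98.05 in WT, 354 to 406 in WT-v, 1091 to 1337 in DoxR and 1421 to 1812 in DoxR-v, in the scanner's intensity units. Since WT was not detected, only a bound can be given there, which sets the brighter mean against the lowest level detected on each dim array, or against the probe itself where that was higher. Such bounds, here and below, hold for the processing used in these results, and some other settings gave smaller differences. GRIN1 rose at least 28.8-fold in DoxR vs WT (log2 difference 5.52, SE 0.16, adjusted p = 7.815e-11). It rose at least 31.1-fold in DoxR-v (5.63, adjusted p = 2.255e-10) and at least 6.37-fold in WT-v (3.34, adjusted p = 1.592e-08). DoxR-v exceeded WT-v 4.89-fold (log2 2.29, adjusted p = 4.749e-07). DoxR-v and DoxR differed by 0.11, with a 95% interval from -0.24 to 0.47. In bulk RNA such as this, fewer cells of a type and less RNA per cell cannot be told apart. The summed level of the mesenchymal markers was also lowest in WT. Unlike GRIN1, this sum was higher in DoxR than in DoxR-v, and its WT-v and DoxR-v ranges overlapped (62.3 to 63.0 and 61.8 to 63.3). Of the 8 tested, 4 (VIM, CD44, SNAI2 and COL3A1) were higher in DoxR vs WT and 1, TWIST1, was lower (-1.53), and in WT-v vs WT 4 were higher and 2, CD44 and THY1, lower. Their part in the GRIN1 and GRIN3A differences was not tested.

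The large rise of GRIN1 was read by 1 of its 3 probes. Each of the 3 is assigned to a different GRIN1 transcript. One of the other probes lay between 4.37 and 4.98 on all arrays of WT, WT-v and DoxR, and at 5.89, 5.34 and 4.76 in DoxR-v. It was called higher in DoxR-v vs WT (log2 0.78, adjusted p = 0.018) and in DoxR-v vs WT-v (0.74, adjusted p = 0.0233), and both calls ended without DoxR-v replicate 1. The third probe stayed between 4.38 and 5.27 and was called in no comparison, although its differences of 0.45 in DoxR vs WT (adjusted p = 0.0336) and 0.52 in DoxR-v vs WT (adjusted p = 0.0218) missed only the fold threshold. The 6 tested genes nearest to GRIN1 on the chromosome, 3 on each side, were looked up after the values of GRIN1 were seen. In DoxR vs WT 0 of them were higher and 1 was lower, and in WT-v vs WT 2 were higher.

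**Figure D4:**
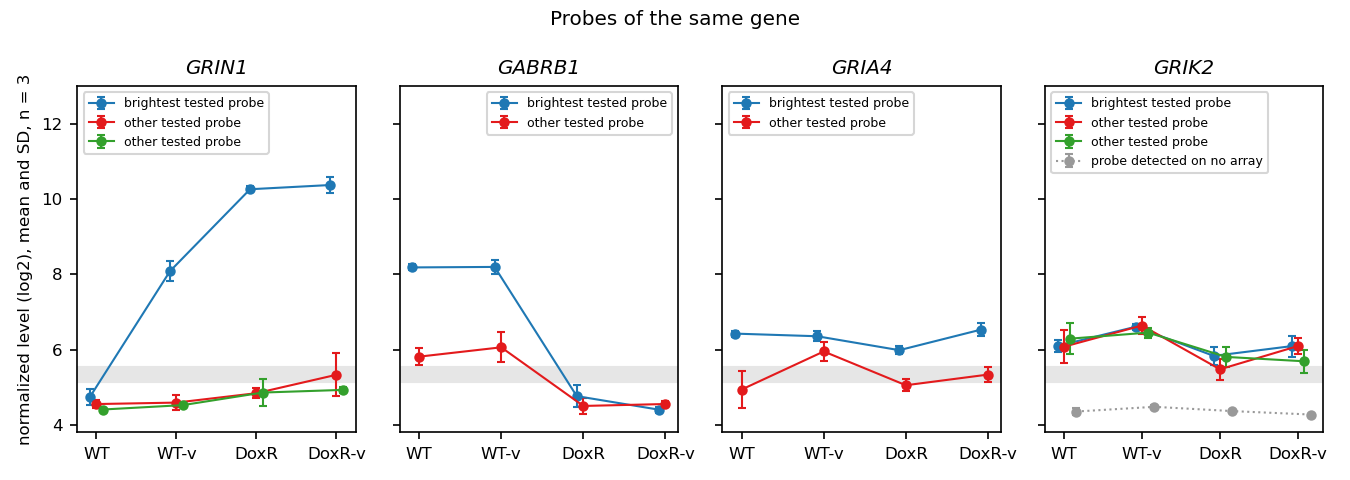
Mean level (log2) and SD (n = 3) of every probe of GRIN1, GABRB1, GRIA4 and GRIK2 in the 4 groups, with the grey band at the lowest detected levels. The probes of GABRB1 fall together, while 1 GRIN1 probe rises to 10.3 in DoxR and the other GRIN1 probes stay near the band.

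GRIN3A, also on chromosome 9, encodes GluN3A, a subunit that binds glycine and lowers the calcium permeability of NMDA receptors. Its only probe read 4.35, 4.36 and 4.58 in WT and 5.99, 6.48 and 6.26 in WT-v. It read 7.46, 7.68 and 7.87 in DoxR and 6.38, 6.14 and 5.85 in DoxR-v. DoxR was highest, WT was lowest, and the WT-v and DoxR-v arrays overlapped between them. GRIN3A rose at least 4.79-fold in DoxR vs WT (log2 3.24, SE 0.17, adjusted p = 1.151e-08). The bounds were at least 1.64-fold in DoxR-v (1.69, adjusted p = 1.005e-05) and at least 1.78-fold in WT-v (1.81, adjusted p = 7.139e-06). GRIN3A was 2.92-fold lower in DoxR-v than in DoxR (log2 -1.55, adjusted p = 1.31e-05), unlike GRIN1, which was not called between those lines. DoxR-v and WT-v differed by -0.12, with a 95% interval from -0.49 to 0.25.

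Among AMPA receptor genes, GRIA2, on chromosome 4, encodes GluA2, the subunit that makes the channel impermeable to calcium once its transcript is edited. GRIA2 read 4.93, 4.89 and 5.56 in WT, of which only WT replicate 3 was detected. It read 7.63, 7.73 and 7.71 in WT-v. The 3 DoxR arrays lay between 4.31 and 4.37 and the 3 DoxR-v arrays between 4.31 and 4.32, all undetected. WT-v was thus the one line with a clear signal and overlapped with none. GRIA2 rose in WT-v vs WT (log2 2.57, SE 0.16, adjusted p = 1.222e-07), and DoxR-v was at least 5.26-fold lower than WT-v (log2 -3.38, adjusted p = 9.219e-09). GRIA2 was also called lower than WT in DoxR (log2 -0.78, adjusted p = 0.0016) and DoxR-v (-0.81, adjusted p = 0.0018). No fold is given against WT, since the WT mean itself lay below the lowest detected levels. Without WT replicate 3 the call in DoxR ended, as the difference shrank to -0.56, below the fold threshold.

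GRIA4, on chromosome 11, encodes another AMPA receptor subunit, and its 2 probes are assigned to different transcripts. The brighter one read 6.47, 6.33 and 6.46 in WT and 6.26, 6.29 and 6.51 in WT-v. It read 5.91, 6.11 and 5.94 in DoxR and 6.37, 6.53 and 6.70 in DoxR-v. The DoxR arrays were the lowest, but no pairwise difference passed the fold threshold. The other probe read 5.30, 4.37 and 5.15 in WT and 6.09, 5.66 and 6.10 in WT-v. All its WT-v arrays lay above all its WT arrays, and it was called higher in WT-v vs WT (log2 1.01, adjusted p = 0.0035), although it was detected on 3 WT-v arrays and only 1 array of each other line. It was also called lower in DoxR-v vs WT-v (-0.61, adjusted p = 0.0507), a call that ended without WT-v replicate 1 or 3 or DoxR-v replicate 1 or 3. GRIA1 and GRIA3 were detected on no array.

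Of the kainate receptor genes only GRIK2, on chromosome 6, which encodes GluK2, was detected in whole groups. Its 3 tested probes are assigned to 1 transcript and stayed between 5.16 and 6.81 on all 12 arrays, and a further probe, assigned to another transcript, was detected nowhere. The brightest probe was called in no comparison, with differences from -0.51 (DoxR-v vs WT-v, adjusted p = 0.0304) to 0.51 (WT-v vs WT, adjusted p = 0.0291). The other tested probes were called where the brightest was not. One was lower in DoxR vs WT (-0.60) and higher in DoxR-v vs DoxR (0.62), and the other was lower in DoxR-v vs WT (-0.60) and in DoxR-v vs WT-v (-0.76). Each of these probe calls ended on leaving out certain single arrays, except the last. GRIK3 was detected on 1 DoxR array (5.32) and GRIK5 on 1 DoxR-v array (5.35), and neither was called. GRIK1, GRIK4 and the delta receptor gene GRID1 were detected on no array.

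GRM8, on chromosome 7, encodes mGlu8, a receptor that couples to inhibitory G proteins and sits mainly on presynaptic terminals. It read 4.86, 4.40 and 4.65 in WT and 4.62, 4.37 and 4.60 in DoxR, all undetected. It read 6.03, 6.62 and 5.88 in WT-v and 5.89, 6.22 and 6.50 in DoxR-v, all detected. The lines given vorinostat overlapped each other and lay wholly above the lines without it. GRM8 rose at least 1.70-fold in WT-v vs WT (log2 1.54, SE 0.21, adjusted p = 0.00013) and at least 1.90-fold in DoxR-v vs DoxR (1.67, adjusted p = 3.558e-05). DoxR-v also exceeded WT at least 1.73-fold (1.57, adjusted p = 0.0001). DoxR-v and WT-v differed by 0.03, with a 95% interval from -0.42 to 0.48. The vorinostat difference among resistant lines minus that among parental lines was 0.14 and was not called. The 6 tested genes nearest to GRM8 were looked up after its values were seen. Of them 3 were higher in WT-v vs WT, 3 in DoxR-v vs WT, 1 in DoxR-v vs DoxR and 3 in DoxR vs WT. Over all tested genes 14.0%, 12.6%, 14.3% and 17.1% were higher, in that order. In the last comparison GRM8 itself was detected in neither line.

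GRM2, on chromosome 3, encodes mGlu2, a further inhibitory autoreceptor. It read 6.20, 5.16 and 6.23 in WT and 4.95, 5.60 and 5.26 in WT-v. The 3 arrays of DoxR lay between 5.50 and 5.74 and those of DoxR-v between 5.33 and 5.40. WT and WT-v overlapped, and WT replicate 2 was as low as the drug-exposed arrays. GRM2 was called lower in WT-v, where it was detected on 1 array, than in WT (log2 -0.59, adjusted p = 0.0804), close to both thresholds. That call ended without WT replicate 1 (-0.42), WT replicate 3 (-0.41), WT-v replicate 1 (-0.43) or WT-v replicate 3 (-0.59, adjusted p = 0.158). GRM6, the receptor of retinal bipolar cells, was detected on 1 WT array (5.36), and so was the transcribed pseudogene GRM5P1 (5.82). Neither was called, and GRM3, GRM4, GRM5 and GRM7 were detected on no array.

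Among GABA-A receptor genes, GABRB1, on chromosome 4, encodes the beta-1 subunit. Its brightest probe read 8.27, 8.13 and 8.15 in WT and 8.14, 8.05 and 8.40 in WT-v. It read 4.55, 4.64 and 5.11 in DoxR and 4.40, 4.49 and 4.32 in DoxR-v. The parental lines overlapped each other, and every array of the doxorubicin-selected lines lay below them and was undetected. GABRB1 fell at least 7.48-fold in DoxR vs WT (log2 -3.42, SE 0.16, adjusted p = 2.842e-09). The fall was at least 7.38-fold in DoxR-v vs WT (-3.78, adjusted p = 3.39e-09) and at least 7.45-fold in DoxR-v vs WT-v (-3.79, adjusted p = 2.47e-09). WT-v and WT differed by 0.01, with a 95% interval from -0.32 to 0.35. The second GABRB1 probe was called lower in the same comparisons, by -1.31, -1.26 and -1.51 on the log2 scale. ERBB3 was split between the lines in the opposite sense (levels of 4.41 to 4.70 in the parental lines and 5.55 to 6.02 in the selected ones), and its part was not tested. Of the 6 tested genes nearest to GABRB1, looked up after its values were seen, 1 was higher and 1 lower in DoxR vs WT.

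GABRE, on the X chromosome, encodes the epsilon subunit of GABA-A receptors. It read 6.18, 6.48 and 5.77 in WT, 5.18, 5.98 and 5.07 in WT-v, 5.48, 5.49 and 5.85 in DoxR, and 4.92, 5.52 and 5.20 in DoxR-v. WT and DoxR were detected on every array, WT-v on 2 and DoxR-v on 1. GABRE was lower in DoxR-v vs WT (log2 -0.93, adjusted p = 0.0128), without overlap, and 1.66-fold lower in WT-v vs WT (-0.73, adjusted p = 0.0374), where the groups overlapped. Both calls ended when arrays were scaled to a common median in place of quantile normalization (-0.57 and -0.36), which also moved the median of all genes from 0.02 to 0.32 and from 0.03 to 0.29. Each call was lost under 4 changes of processing, median scaling included, and kept under 5. The smallest differences over all alternatives were -0.197 in DoxR-v vs WT and -0.157 in WT-v vs WT. The second call also ended without WT replicate 2 (-0.56), WT-v replicate 1 (-0.62) or WT-v replicate 3 (-0.56). A second GABRE probe was detected on no array. GABRA5, which encodes an alpha subunit, was detected on WT replicate 3 only (5.69) and was called in no comparison.

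The interaction asks whether the vorinostat difference was the same in resistant and parental lines, as (DoxR-v minus DoxR) minus (WT-v minus WT). It was called for 4 of the 15 tested members, 1 higher and 3 lower, where 42.1% of all tested genes were called (20.2% higher, 21.9% lower). GRIN1 rose with vorinostat in the parental line and was not called between the resistant lines (interaction -3.23, SE 0.23, adjusted p = 3.52e-07). GRIN3A rose in WT-v and fell in DoxR-v relative to DoxR (-3.36, SE 0.24, adjusted p = 3.441e-07). GRIA2 rose in WT-v and was undetected in both resistant lines (-2.60, SE 0.22, adjusted p = 1.943e-06). For GRIA4 the interaction was 0.62 by the brighter probe (SE 0.18, adjusted p = 0.0179) and -0.73 by the other (SE 0.31, adjusted p = 0.0855), so the probes of this gene disagreed in sign. The call of the brighter probe ended without WT-v replicate 1 (0.57), DoxR replicate 1 (0.58) or DoxR-v replicate 3 (0.54), and that of the other under 11 of 19 alternatives.

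Genes that make, move and break down the transmitters were examined beside the receptors. Of 10 genes for GABA synthesis, transport and breakdown on the array, 6 were tested. SLC32A1, the transporter that loads GABA and glycine into vesicles, was not detected in WT (mean 4.39) and was detected on all arrays of WT-v (5.46), DoxR (7.10) and DoxR-v (6.55). It rose at least 3.23-fold in DoxR (log2 2.71, adjusted p = 3.053e-07) and at least 2.21-fold in DoxR-v (2.17, adjusted p = 4.915e-06), and was also called in WT-v (1.07, adjusted p = 0.0013). ABAT, the GABA transaminase that degrades GABA, went the other way, with means of 7.58 in WT, 6.80 in WT-v, 4.61 in DoxR, where it was undetected, and 6.45 in DoxR-v. It fell at least 4.92-fold in DoxR vs WT (log2 -2.97, adjusted p = 1.56e-08). ALDH5A1, which acts after ABAT, rose in all 3 lines (0.68, 0.84 and 0.95 in DoxR, DoxR-v and WT-v). These calls were lost with its probes averaged and with the authors' normalized values. The call in DoxR was also lost without background correction and with another normexp offset. GAD1, a GABA-making decarboxylase, was called in no pairwise comparison. Of the 6, 2 were higher and 1 lower in each line against WT, with the same shares of all genes called as given above.

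Of 17 genes for glutamate supply, transport and breakdown, 7 were tested. In DoxR vs WT 2 were higher and 0 lower, with GLUD1, glutamate dehydrogenase, at 0.65 (adjusted p = 0.0032), a call that ended without WT replicate 2. In DoxR-v vs WT 2 were higher as well, GLUD1 (0.76) and the glial-type glutamate transporter SLC1A3 (1.04, adjusted p = 0.0154), detected on 2 DoxR-v arrays and nowhere else. In WT-v vs WT 0 were higher and 1 lower. Over all tested genes 33.1%, 24.4% and 26.3% were called in these comparisons. SLC1A4 and GAD1 entered the test through DoxR arrays only, and SLC1A3 through DoxR-v arrays only. No median is therefore given for the glutamate supply and GABA supply lists.

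Auxiliary and scaffold proteins of glutamate receptors were called in both directions. Of 20 tested genes 4 were higher and 3 lower in DoxR vs WT, 4 and 2 in DoxR-v vs WT, and 6 and 5 in WT-v vs WT, where 33.1%, 24.4% and 26.3% of all tested genes were called. DLG4, which encodes the postsynaptic scaffold PSD-95, rose in all 3 (log2 1.72, 1.06 and 1.20). HOMER1, which links group I metabotropic receptors to internal calcium stores, was undetected in WT and also called higher in all 3 (1.26, 0.63 and 1.60), with bounds of at least 1.28-fold in DoxR and at least 1.62-fold in WT-v and detection on 1 array in DoxR-v. So was the kainate receptor auxiliary subunit NETO2 (1.06, 0.68 and 1.01). The HOMER1 call in DoxR-v ended without WT replicate 2 or DoxR-v replicate 1. SHANK2, a scaffold that binds PSD-95-associated proteins, rose 5.40-fold in DoxR (log2 2.43, adjusted p = 7.803e-07) but was lower than WT in WT-v (-1.21, adjusted p = 0.00055), where it was detected on 1 array. PICK1, which binds GluA2, fell in DoxR (-1.32), and so did NSF (-0.96), an ATPase of membrane fusion that also binds GluA2. Between the resistant lines 2 were higher and 5 lower in DoxR-v, where 28.2% of all tested genes were called. DLG2 entered the test through WT arrays only and CBLN2 through WT-v arrays only, so no median of this list is given.

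Genes for assembly, clustering and trafficking of GABA receptors were also called in both directions. Of 12 tested genes 4 were higher and 3 lower in DoxR vs WT, 1 and 4 in DoxR-v vs WT, 4 and 2 in WT-v vs WT, and 2 and 4 in DoxR-v vs DoxR, where 33.1%, 24.4%, 26.3% and 28.2% of all tested genes were called. NLGN4X, a neuroligin of the postsynaptic membrane, was detected in DoxR alone (mean 7.91, against 4.32 to 4.53 elsewhere) and rose at least 5.67-fold over WT (log2 3.38, adjusted p = 5.553e-10). PLCL1, a phospholipase-related protein that binds GABA-A receptors, rose at least 4.23-fold in DoxR (2.49, adjusted p = 2.64e-07) and was undetected in DoxR-v. Its call as lower in DoxR-v vs WT (-0.64) was between 2 lines in which it was not detected. KCTD12, an auxiliary subunit of GABA-B receptors, rose in DoxR (1.52) and WT-v (1.55) and was undetected in DoxR-v, although GABBR1 and GABBR2 were detected nowhere. It was also called lower in DoxR-v vs WT (-0.72), where it was detected on 1 WT array only. GPHN, which encodes gephyrin, the scaffold of inhibitory synapses, rose in WT-v (1.17, adjusted p = 7.789e-06) and DoxR-v (0.95, adjusted p = 3.86e-05), with 0.175 in DoxR, not called. LHFPL4, a membrane partner of GABA-A receptors and neuroligin-2, fell 2.29-fold in DoxR (-1.20, adjusted p = 7.402e-05) and was 2.53-fold higher in DoxR-v than in DoxR (1.34, adjusted p = 3.236e-05). GABARAPL1, of the family that binds GABA-A receptor gamma subunits and autophagosomes, fell in WT-v (-1.67), DoxR (-0.96) and DoxR-v (-0.91). Since NLGN4X was detected in DoxR alone, no median of this list is given.

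**Figure D5:**
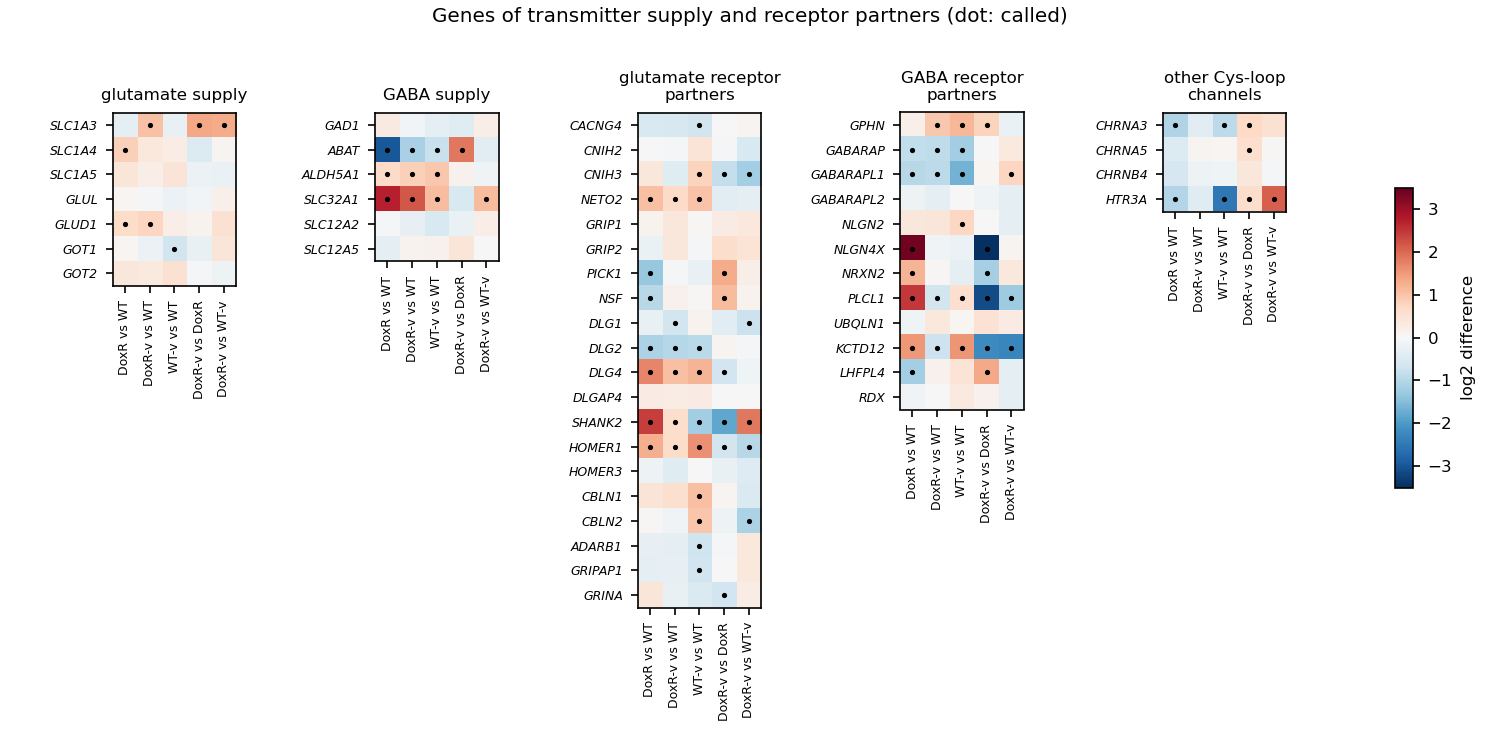
Log2 difference (colour) of each tested gene of transmitter supply, of receptor partners and of the other channels of the Cys-loop family in the 5 pairwise comparisons; dots mark called genes. SLC32A1 is red in all 3 comparisons with WT (2.71, 2.17 and 1.07), and NLGN4X is red in DoxR vs WT (3.38) and blue in DoxR-v vs DoxR (-3.51).

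Of the other channels of the Cys-loop family, to which GABA-A receptors belong, 4 were tested and all 4 were acetylcholine or serotonin receptor subunits. In DoxR vs WT 0 were higher and 2 lower, in WT-v vs WT again 0 and 2, and in DoxR-v vs WT 0 and 0. Over all tested genes 33.1%, 26.3% and 24.4% were called, in that order. CHRNA3, the nicotinic subunit of autonomic ganglia, fell in DoxR (log2 -1.06, adjusted p = 5.528e-05) and WT-v (-0.91, adjusted p = 0.00036). HTR3A, the serotonin-gated channel, fell 5.72-fold in WT-v (-2.52, adjusted p = 5.779e-06) and 2.05-fold in DoxR (-1.04, adjusted p = 0.0029). In DoxR-v vs DoxR 3 of the 4 were higher and 0 lower, where 28.2% of all tested genes were called. The HTR3A call (0.62, adjusted p = 0.0527) ended without any 1 of the DoxR arrays or of DoxR-v replicates 1 and 2. The CHRNA5 call (0.59) ended without DoxR replicate 2 or 3 or DoxR-v replicate 1 or 2, so only that of CHRNA3 (0.69) held with every single array left out. The median of these 4 genes was -0.81 in DoxR vs WT, -0.28 in DoxR-v vs WT, -0.52 in WT-v vs WT and 0.61 in DoxR-v vs DoxR. That of all tested genes was 0.010, 0.023, 0.026 and 0.002, in that order. In WT-v vs WT the nicotinic subunits CHRNA5 (0.06) and CHRNB4 (-0.14) changed little and were not called.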

How the data were processed

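RNA from 4 lines, 3 arrays each, was hybridized to Illumina HumanHT bead arrays. The authors deposited non-normalized probe intensity values for 47323 probes and, beside each, a detection p-value. A second deposited table holds normalized intensity values. The submitters' processing notes name lumi 2.13.3 and R 3.0.1. Over all arrays together the deposited normalized values had a median of 166, and none lay under 145.7. They ranked the probes of each array as the non-normalized values did (Spearman rho 1). They served as an alternative.

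Intensities were background-corrected with neqc in limma 3.58.1 (R 4.3.3, detection p-values, offset 16), quantile normalized and put on the log2 scale. Testing took in 21609 probes, those detected (p-value under 0.01) on 1 array or more, with 1 mean per group over all 12 arrays (lmFit and eBayes), with Benjamini-Hochberg adjustment. Calls needed an adjusted p below 0.1 and a fold above 1.5, the study's thresholds. Probes were named through the platform table (30113 with 1 symbol, 8 with several, 17202 with none), and all 43 members matched a current gene by Entrez identifier. The brightest tested probe stood for its gene. Named members were those detected on all 3 arrays of a group, with other members by count or name, and up to 4 called genes of each related list by smallest adjusted p in a comparison. The members and lists were chosen with earlier results of these data known. The number of arrays limits the precision. The fit was run on simulated data first. Alternatives covered background, scaling, starting table, detection filter, probe averaging, replicate block, groups in the fit and each array left out.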

Additional observations from a re-analysis of the deposited data

Results flagged for a closer look

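The vorinostat difference differed between resistant and parental lines, by limma's test of the interaction, for 4 of 15 tested receptor subunit genes, where 42.1% of all tested genes were called. The interaction was -3.23 for GRIN1, -3.36 for GRIN3A and -2.60 for GRIA2, all by their brightest probe. For GRIA4 it was 0.62 by the brightest probe and -0.73 by the other probe. The GRIA4 calls did not hold, since the first ended without any 1 of 3 arrays and under other settings and the second under 11 of 19 alternatives. Groups of 3 arrays are too small for a test of single outlying arrays.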

How the results depend on the processing

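Counts of called members fell with the authors' normalized values, which gave 1 call in DoxR-v vs DoxR (2 in the results above), 2 in DoxR-v vs WT (6) and 2 in WT-v vs WT (6). The cause was not tested. Leaving out 1 array gave 4 to 7 calls in DoxR vs WT (7 without WT replicate 2), 6 to 8 in DoxR-v vs WT, 4 to 8 in WT-v vs WT, 2 to 3 in DoxR-v vs DoxR, 3 to 4 for DoxR-v against WT-v, and 3 to 5 for the interaction. With the replicate number as a block the counts were 4, 6, 5, 2, 3 and 5 in that order, with GRM2 lost in WT-v vs WT (adjusted p = 0.108) and GRIK5 added in the interaction, and no other call changed. The replicate numbers did not pair the samples, as deviations of same-numbered arrays correlated at -0.33 to 0.17, with 1 of 18 pairs over 0.1. Median scaling moved the median of all genes to 0.17 in DoxR vs WT, 0.32 in DoxR-v vs WT, 0.29 in WT-v vs WT and -0.18 in the interaction.

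By the brightest probes, the calls of GRIN1 and GABRB1 held under every alternative run. So did those of GRIN3A in DoxR vs WT, DoxR-v vs DoxR and the interaction. Those of GRIA2 in the interaction and for WT-v against WT and DoxR-v held as well. The sizes of these differences depended on the processing. In DoxR vs WT they ran from 2.085 to 5.628 for GRIN1, 0.934 to 3.346 for GRIN3A and -3.589 to -1.150 for GABRB1. The fold bounds in the results hold for the main processing only. Of 521 values of called members under alternatives, 479 stayed called, 41 lost the call and 1 changed sign, the GRIA4 interaction (-0.054 with its probes averaged). GRIA2 in DoxR and DoxR-v vs WT lost its call without background correction (-0.37 and -0.41). With the authors' values GRIN3A lost its calls in DoxR-v and WT-v vs WT (0.34 and 0.37) and GRM8 all 3 of its calls (0.33, 0.31 and 0.31). GRM2 lost its call under 11 of 21 alternatives. The second GABRB1 probe lost calls with the authors' values in all 3 comparisons and without background correction in DoxR and DoxR-v vs WT, and the other GRIN1 probe lost each of its calls under 4 of 19 alternatives.

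Other changes of sign were in values that were not called. GRIA4 with probes averaged gave -0.22 for DoxR-v against WT-v and 0.47 for WT-v against WT, and with median scaling 0.35 for the latter. GRIK2 in DoxR-v vs WT gave 0.38 with median scaling, and 0.001 with no background correction, with another normexp offset and with the authors' values. Leaving out single arrays also turned some signs, and the values then ran from -0.163 to 0.093 for GRIK2 in DoxR-v vs WT, from -0.088 to 0.084 for GABRB1 in WT-v vs WT, and from -0.227 to 0.004 for GRM8 in DoxR vs WT. For DoxR-v against WT-v they ran from -0.366 to 0.086 for GABRE, from -0.248 to 0.014 for GRIN3A, from -0.061 to 0.263 for GRM2 and from -0.120 to 0.250 for GRM8. The GRM8 interaction ran from -0.013 to 0.357.

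For genes of the related lists, alternatives chosen after seeing the data kept 1651 of 1860 called values called and turned none. A slide block was not run, since no slide is given, and a fit of only the 2 groups compared cannot give the interaction. Dim probes limit what can be seen, as 28 of 43 members were detected on no array.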
